A study of Mus musculus with 24 samples.

Results

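Flk1+ cells were compared with Flk1- cells sorted from mouse embryoid bodies at 8 d of differentiation. Embryoid bodies are aggregates in which embryonic stem cells differentiate into many cell types side by side. The comparison takes 8 of the 24 samples of the series: the 4 labelled Flk+ 8d 1 to 4 and the 4 labelled Flk- 8d 1 to 4, chosen by these labels alone. The other 16 samples are 4 of each sort at 84 h and 4 at 95 h, and they enter only where the difference at 8 d is set against that at an earlier time. No treatment, strain, embryonic stem cell line or culture condition is given for any group, and all groups share the same reference RNA, taken from homogenised mouse pups. Each sample was hybridised in Cy5 with that reference in Cy3 to an Agilent mouse development array. A value is the log2 ratio of sample to reference for a gene. A difference is the Flk1+ mean minus the Flk1- mean, so that 1 is a factor of 2. Samples of a group carry numbers, and no label says that they came from separate cultures, so p-values rest on a spread between samples that may be technical only.

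Flk1, encoded by Kdr, is the main signalling receptor for VEGF. In the early embryo it marks mesoderm from which blood, endothelium and part of the heart and its vessels arise, and in later stages it becomes largely restricted to endothelial cells, where VEGF signalling through it drives survival, migration and sprouting. The series' title names a role of Wnt signalling in endothelial commitment, so the Wnt pathway is described beside the endothelial genes.

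The 8 arrays of 8 d resembled each other closely. Correlations over all features ran from 0.925 to 0.955 among Flk1+ arrays, from 0.93 to 0.958 among Flk1- arrays and from 0.876 to 0.928 between the sorts. At 84 h correlations within a sort ran from 0.59 to 0.93 (Flk1+) and from 0.877 to 0.966 (Flk1-). At 95 h they ran from 0.751 to 0.855 (Flk1+) and from 0.669 to 0.898 (Flk1-). The fit rests on the 8 arrays of 8 d because most earlier groups varied more between arrays. The spread of values over the probes of an array (SD), which is no measure of variation between arrays, was 0.562 to 0.634 at 8 d and 0.703 to 1.01 at the earlier times. The direction of the ratio is not given in the sources used here. All 13 measured genes of newborn pup tissues averaged below 0 over the 24 arrays and all 16 measured embryonic stem cell genes averaged above 0, so values were read as sample over reference. The log base is not given either, and another base would multiply every difference by the same factor.

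Among 17440 features, which are named genes and unnamed probes, 952 were called, meaning an adjusted p under 0.05 in limma's moderated test. They make up 5.46% of the features. Of these, 570 (3.27%) were higher and 382 (2.19%) lower in Flk1+ cells. The gene lists described below hold named genes only. Of the 8973 named genes 226 were called higher and 311 lower, so shares over all features differ from those over named genes. The 4 Flk1+ arrays did not overlap the 4 Flk1- arrays for 2781 features (15.9%), among them 949 of the 952 called. Most called differences were small, with a median size of 0.364. Only 39 features (0.224%) were called with a difference of at least 1, 16 of them higher and 23 lower. Over all features the median difference was 0.00668. The count of calls depended on single arrays: it fell to 491, 365 and 415 without Flk1+ arrays 1, 2 and 3, and to 519, 564 and 341 without Flk1- arrays 1, 3 and 4. With the sample number of the labels as a block it rose to 1750 (1048 higher, 702 lower), 876 of them among the 952.

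**Figure D1:**
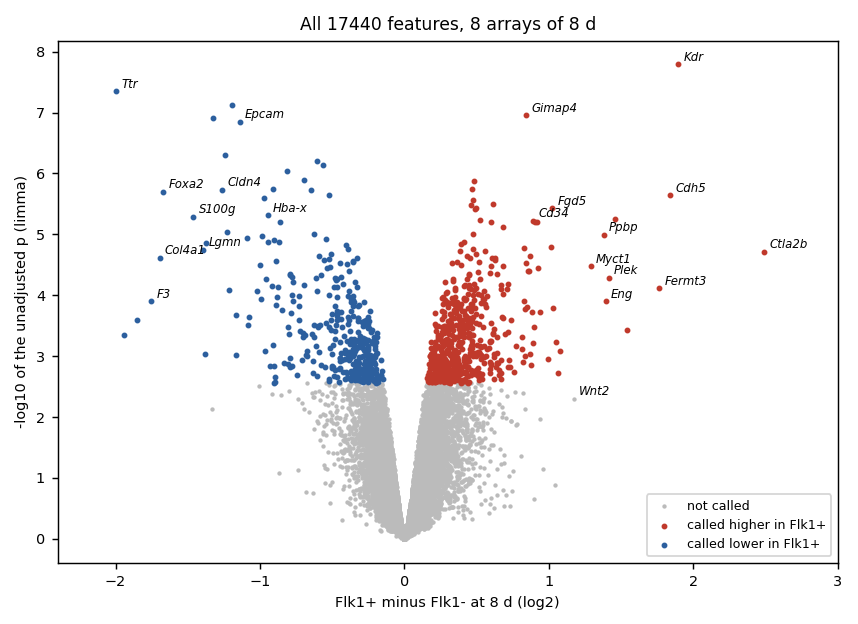
Difference between Flk1+ and Flk1- cells at 8 d (x axis, log2) against the -log10 of the unadjusted limma p (y axis) for all 17440 features, each point 1 feature. Red points are the 570 called higher and blue points the 382 called lower in Flk1+ cells; Kdr at 1.89 and Ttr at -2.0 have the smallest p on their sides, and Wnt2 at 1.17 lies among the uncalled grey points.

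Kdr, the gene of the sorted protein, checks the labels. Its log2 ratio was 1.46, 1.51, 1.46 and 1.89 on Flk1+ arrays 1 to 4 and -0.34, -0.35, -0.29 and -0.28 on Flk1- arrays 1 to 4. Every Flk1+ array lay far above every Flk1- array, and the sorts differed by 1.89 (SE 0.09, adjusted p = 0.000283), which is 3.72-fold. This difference follows from the sort and is no finding.

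Among the 9 measured genes of VEGF ligands, receptors and coreceptors, Kdr and Nrp1 were called higher, Vegfa was called lower and 6 were not called. That is 33.3% called, Kdr through the sort, against 5.46% of all features. The median difference was 0.09. Nrp1, a coreceptor that binds VEGF-A together with Flk1, was higher by 0.29 (SE 0.05, adjusted p = 0.0238), and by 0.57, also called, with its most variable probe in place of the mean of its probes. Vegfa, the ligand of Flk1, was lower by a similar size. Its ratios were 0.24, 0.31, 0.40 and 0.19 on Flk1+ arrays and 0.55, 0.52, 0.60 and 0.55 on Flk1- arrays. No Flk1+ array reached a Flk1- array, and the difference was -0.27 (SE 0.05, adjusted p = 0.0244). Calls for both genes were fragile: that of Nrp1 ended on leaving out Flk1+ array 1 or 3 or Flk1- array 3 or 4 (differences from 0.25 to 0.28) and that of Vegfa without Flk1+ array 1 or 2 or Flk1- array 1, 3 or 4 (from -0.28 to -0.26). Both also ended in the fit on all 24 arrays, and that of Nrp1 with trended, robust priors.

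The other VEGF receptors gave no call. Flt1, the decoy-like receptor VEGFR1, differed by 0.09 (95% interval -0.24 to 0.42). Flt4, the receptor of lymphatic endothelium, differed by 0.26 (-0.20 to 0.71), with 1 low Flk1- array at -0.66 and the other 7 arrays between 0.17 and 0.42. Nrp2 (0.00), Vegfc (0.09) and Vegfd (0.04) were also not called. Vegfb, a ligand of VEGFR1, was higher within each same-numbered pair, by 0.39, 0.39, 0.38 and 0.26. Its arrays overlapped between the sorts, and it was not called (0.35, SE 0.12, adjusted p = 0.112); with the sample number as a block its adjusted p was 0.0128, within a range of 0.0128 to 0.561 over 15 alternatives. Of the Tie receptors and angiopoietins, 2 genes were measured. Angpt2, the angiopoietin released by activated endothelium, was higher by 0.89 (SE 0.16, adjusted p = 0.0184), with Flk1+ arrays from 0.63 to 1.30 and Flk1- arrays from -0.27 to 0.17. This call ended in the fit on all 24 arrays. Angpt1, the agonist made mainly by mural and mesenchymal cells, differed by -0.18 and was not called.

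Part of the endothelial genes was higher in Flk1+ cells. Of 28 measured junction and surface genes 8 (28.6%, against 3.27% of all features) were called higher, 0 lower, with a median difference of 0.20. Of 11 measured signalling and cytoskeletal genes of endothelium 7 (63.6%) were called higher, 0 lower, with a median of 0.67. The mean over the surface list ran from -0.44 to -0.29 on Flk1+ arrays and from -0.67 to -0.60 on Flk1- arrays, and for the signalling list from -0.27 to -0.10 against -0.79 to -0.68, so neither list's array means overlapped between the sorts. In sorted bulk RNA a larger share of endothelial cells and more of these transcripts per cell cannot be told apart. With the sample number as a block, 12 surface genes were called higher and 1 lower.

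Cdh5 encodes VE-cadherin, the adhesion molecule of endothelial junctions. Its ratios were -0.71, 0.12, 0.07 and -0.21 on Flk1+ arrays and -2.11, -2.01, -1.98 and -1.97 on Flk1- arrays. The Flk1- arrays were tightly grouped and the Flk1+ arrays spread wider, yet the gap between the sorts exceeded either spread. Flk1+ cells were higher by 1.84 (SE 0.17, adjusted p = 0.0021), which is 3.57-fold. Eng, the TGF-beta coreceptor endoglin, stood at -0.96, 0.05, -0.92 and -0.52 on Flk1+ arrays against -1.92, -1.77, -2.08 and -2.15 on Flk1- arrays. Flk1+ array 2 was the highest, and the difference was 1.39 (SE 0.21, adjusted p = 0.0123). Cd34, a sialomucin of endothelial and blood progenitor cells, was higher by 0.89 (SE 0.09, adjusted p = 0.00312), with Flk1+ arrays between -1.25 and -1.0 and Flk1- arrays between -2.23 and -1.85. Emcn (endomucin, 0.68) and Calcrl (the adrenomedullin receptor, 0.54) were also called higher. Pecam1, the platelet and endothelial adhesion molecule CD31, was not called, at 0.22 (95% interval 0.07 to 0.37, adjusted p = 0.0965); it was called without Flk1- array 2 (0.28) and with the sample number as a block (adjusted p = 0.0481, range over alternatives 0.0308 to 1). Esam differed by 0.15 and was not called.

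Of the signalling genes, Myct1, an endothelial target of early vascular regulators, had ratios of -0.11, 0.44, -0.40 and 0.15 on Flk1+ arrays and -1.19, -1.25, -1.17 and -1.46 on Flk1- arrays. No array overlapped, and the difference was 1.29 (SE 0.16, adjusted p = 0.00688). Fgd5, an endothelial exchange factor for Cdc42, was higher by 1.02 (SE 0.10, adjusted p = 0.00261), Rhoj, a small GTPase of endothelium, by 0.86 (SE 0.11) and Gimap4, a GTPase of the immunity-associated family, by 0.84 (SE 0.05). The arrays of Gimap4 hardly varied, lying between -0.62 and -0.40 for Flk1+ and between -1.42 and -1.34 for Flk1-, and its adjusted p was 0.000412. Klhl6, a Kelch protein of endothelium and B cells, was higher by 0.71 (SE 0.10, adjusted p = 0.0104). The calls of Emcn, Calcrl, Rhoj, Gimap4 and Klhl6 ended in the fit on all 24 arrays, and those of Cdh5, Eng, Cd34, Myct1 and Fgd5 did not.

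Endothelial transcription factors were called in both directions. Of 13 measured, 2 were called higher, 1 was called lower (23.1% called, against 5.46% of all features) and 10 were not called. The median difference was 0.11. With the sample number as a block 4 were higher and 2 lower. Elk3, an ETS factor of vessels, rose by 0.63 (SE 0.08, adjusted p = 0.00629) and kept its call in all 15 alternative fits. Klf2, the shear-stress factor of endothelium, was at 0.51, -0.44, 0.25 and 0.12 on Flk1+ arrays and -0.27, -0.84, -0.82 and -0.90 on Flk1- arrays. Flk1+ array 2 overlapped Flk1- array 1, and the difference of 0.82 was not called (SE 0.21, adjusted p = 0.0597). It was called without Flk1+ array 2 or Flk1- array 1 (0.96 to 1.00) and with the block (adjusted p = 0.0179, range over alternatives 0.0179 to 0.15). Klf4, which endothelium shares with epithelium and pluripotent cells, was the member called lower, by 1.07 (difference -1.07, SE 0.18, adjusted p = 0.0161), a call that ended in the fit on all 24 arrays. Sox18 was at -0.02 and not called.

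Promoter sequences of endothelial genes called higher are shown because ETS factors are well known to act at endothelial promoters. These genes were picked for being called higher, so their common direction is no finding. The 250 bases before the RefSeq start (build GRCm38.p6) were searched on both strands for 11 short motifs, chosen with results of these data known. The ETS-type motif CAGGAAG occurred in 7 of the 17 called-higher endothelial genes with a promoter entry (20 genes were called) and in 4 of 25 endothelial genes not called. Of all 7250 measured genes with an entry 11.8% held it, and 10.8% of all 32851 promoters. The other ETS letters searched, CCGGAAG, occurred in 1 of the 17, against 15.3% of measured genes. Most of the 11 motifs are not described here. Among them, the SOX-type motif AACAAT occurred in 3 of the 17 and 0 of the 25. The GC box GGGCGG occurred in 7 of the 17 and 17 of the 25. These are letter matches and do not show binding. Capitals mark the motif on the strand where it reads CAGGAAG, or its reverse complement CTTCCTG. It lies 142 to 136 bases before the start in Cd34, 174 to 168 in Emcn, 67 to 61 in Calcrl and 129 to 123 in Rhoj, and it is not in this window of Kdr.
Cd34, chr1:194938571-194938820, plus strand: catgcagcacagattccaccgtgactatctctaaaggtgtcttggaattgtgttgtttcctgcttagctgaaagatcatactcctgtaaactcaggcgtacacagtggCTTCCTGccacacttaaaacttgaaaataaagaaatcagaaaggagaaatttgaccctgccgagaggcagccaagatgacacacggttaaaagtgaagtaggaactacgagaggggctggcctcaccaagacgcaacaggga
Emcn, chr3:137340828-137341077, plus strand: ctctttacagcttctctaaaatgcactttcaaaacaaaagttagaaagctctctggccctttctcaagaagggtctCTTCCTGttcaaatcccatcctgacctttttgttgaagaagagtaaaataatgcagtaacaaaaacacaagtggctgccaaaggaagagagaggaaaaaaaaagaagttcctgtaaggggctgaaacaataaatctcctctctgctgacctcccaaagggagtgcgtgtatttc
Calcrl, chr2:84425267-84425516, minus strand: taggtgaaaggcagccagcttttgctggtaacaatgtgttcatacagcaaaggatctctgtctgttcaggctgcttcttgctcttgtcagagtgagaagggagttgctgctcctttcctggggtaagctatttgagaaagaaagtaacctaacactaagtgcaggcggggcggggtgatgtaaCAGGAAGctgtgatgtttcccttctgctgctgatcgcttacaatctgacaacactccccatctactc
Rhoj, chr12:75308063-75308312, plus strand: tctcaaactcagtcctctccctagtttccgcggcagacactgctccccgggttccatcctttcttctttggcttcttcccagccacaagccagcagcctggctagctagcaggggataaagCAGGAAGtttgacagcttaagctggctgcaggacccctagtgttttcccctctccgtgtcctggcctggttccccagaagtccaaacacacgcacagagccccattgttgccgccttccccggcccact
Kdr, chr5:75978456-75978705, minus strand: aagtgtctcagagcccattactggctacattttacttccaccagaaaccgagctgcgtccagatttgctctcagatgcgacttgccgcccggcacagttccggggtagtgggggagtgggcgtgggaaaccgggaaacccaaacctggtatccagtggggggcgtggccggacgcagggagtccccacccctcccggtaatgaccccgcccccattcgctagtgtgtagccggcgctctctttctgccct
The same letters were found in Klhl6, 72 to 66 bases before the start, and in Elk3, 27 to 21 bases before it.

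Notch signalling sets arterial fate and restrains sprouting downstream of VEGF. Of 18 measured ligands, receptors and targets 3 (16.7%, against 3.27% of all features) were called higher, 0 lower, and the median was -0.03. With the block 3 were higher and 1 lower. Notch1, the receptor, was at -0.63, 0.24, 0.03 and 0.18 on Flk1+ arrays and at -1.07, -0.87, -0.85 and -0.87 on Flk1- arrays (difference 0.87, SE 0.18, adjusted p = 0.0305). Dll4, its arterial ligand, differed by 0.67 (SE 0.15, adjusted p = 0.0424), and Mfng, a Fringe glycosyltransferase that tunes ligand choice, by 0.82 (SE 0.17, adjusted p = 0.0353). Flk1+ and Flk1- arrays were apart for each of these genes, with Flk1+ array 1 lowest and array 2 highest each time. All 3 calls ended on leaving out Flk1+ array 2, 3 or 4 or any single Flk1- array, with differences of 0.78 to 0.89 for Notch1, 0.55 to 0.74 for Dll4 and 0.67 to 0.90 for Mfng; that of Notch1 also ended in the fit on all 24 arrays and that of Dll4 after quantile normalization. Notch4 (0.23) and the target Hey1 (0.04) were not called.

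**Figure D2:**
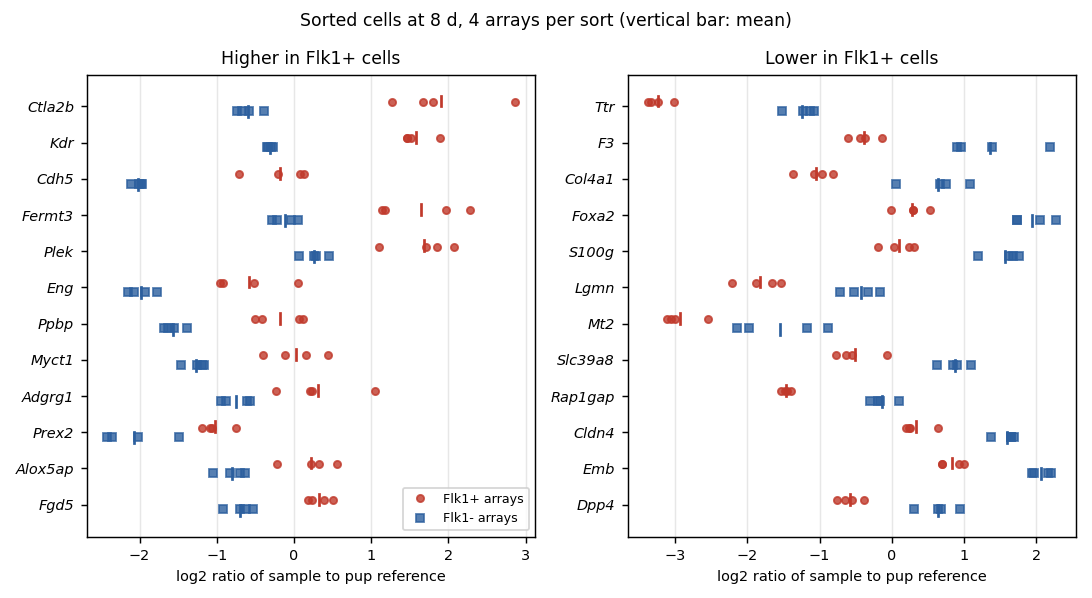
Log2 ratio of sample to pup reference on each of the 8 arrays of 8 d (x axis) for the 12 largest positive (left) and 12 largest negative (right) differences among called named genes, chosen from those whose arrays do not overlap between the sorts. Red circles are Flk1+ arrays, blue squares Flk1- arrays and vertical bars the mean of 4; differences run from Ctla2b at the upper left with 2.49 to Ttr at the upper right with -2.0.

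Several of the largest increases were genes of platelets and white blood cells. Of 18 measured leukocyte, mast cell and platelet genes 4 (22.2%, against 3.27% of all features) were called higher, 0 lower, with a median of 0.10. Ppbp, the platelet basic protein, had ratios of 0.12, 0.06, -0.42 and -0.51 on Flk1+ arrays and -1.38, -1.55, -1.64 and -1.69 on Flk1- arrays (difference 1.38, SE 0.15, adjusted p = 0.00441). Plek, the protein kinase C substrate pleckstrin of platelets, was at 1.85, 2.07, 1.09 and 1.70 against 0.45, 0.28, 0.07 and 0.26 (1.41, SE 0.19, adjusted p = 0.00867). Every Flk1+ array lay above every Flk1- array for both genes. Outside the list, Fermt3, the integrin activator kindlin-3 of blood cells and endothelium, was higher by 1.76 (SE 0.25, adjusted p = 0.0102), with Flk1+ arrays 1 and 2 at 1.96 and 2.28, arrays 3 and 4 at 1.14 and 1.18, and Flk1- arrays from -0.28 to 0.06. Alox5ap, needed for leukotriene synthesis, was also outside the list and higher by 1.03 (SE 0.16, adjusted p = 0.0135). Vav1, an exchange factor of blood cells and a list member, was higher by 0.64; its call ended on leaving out Flk1+ array 1 or 2 or Flk1- array 1, 3 or 4 (0.57 to 0.65). The calls of Ppbp and Vav1 ended in the fit on all 24 arrays.

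The largest difference of a named gene was that of Ctla2b, a cysteine protease inhibitor first described in T cells. Its ratios were 1.67, 2.86, 1.26 and 1.80 on Flk1+ arrays and -0.38, -0.58, -0.67 and -0.73 on Flk1- arrays. Flk1+ array 2 was the highest and no array overlapped (2.49, SE 0.29, adjusted p = 0.00579); this is 5.63-fold. Ctla2b has a near-identical neighbour, Ctla2a, and the probe may read both. Adgrg1, an adhesion receptor, was higher by 1.07, a call that ended on leaving out Flk1+ array 1 or 4 or any single Flk1- array (1.00 to 1.13). Prex2, an exchange factor for Rac, was higher by 1.05, a call that ended on leaving out Flk1+ array 1 or 2 or Flk1- array 1, 3 or 4 (0.93 to 1.07) and in the fit on all 24 arrays.

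Markers of other blood cells included Ptprc, Kit and Gata1. Ptprc, the pan-leukocyte antigen CD45, differed by -0.20 (95% interval -0.38 to -0.02) and was not called. Kit, of progenitors and mast cells, differed by -0.22, with Flk1- arrays from 0.34 to 1.30 and Flk1+ arrays from 0.43 to 0.54, and Gata1 by 0.04; neither was called. The mean over the leukocyte and platelet list ran from -0.33 to -0.15 on Flk1+ arrays and from -0.53 to -0.43 on Flk1- arrays, and its part in the endothelial differences was not tested. Of 9 measured regulators of early blood formation 1 was called higher, by 0.24, and 0 lower (11.1% called, against 3.27% higher over all features). Of 13 measured red cell genes 0 were called higher and 2 lower (15.4% called, against 2.19% lower over all features), with a median of -0.12. The embryonic alpha-type globin Hba-x was at 0.05, 0.09, 0.29 and 0.16 on Flk1+ arrays and at 1.26, 0.86, 1.20 and 1.06 on Flk1- arrays. Its difference was -0.95 (SE 0.09, adjusted p = 0.00312) without overlap, and this call ended in the fit on all 24 arrays. The embryonic beta-type globin Hbb-y, its partner in primitive red cells, was high in both sorts, from 1.84 to 2.10 and from 2.01 to 2.17, and not called (-0.12). Globin genes are close copies, so a probe may read more than 1 of them.

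Endoderm genes were called on the Flk1- side. Of 20 measured, 0 were called higher and 10 lower (50%, against 2.19% of all features), with a median of -0.38. Ttr encodes transthyretin, a carrier protein of visceral endoderm and liver. It was at -3.24, -3.01, -3.38 and -3.33 on Flk1+ arrays and at -1.07, -1.24, -1.13 and -1.52 on Flk1- arrays. All 4 Flk1- arrays lay above all Flk1+ arrays by more than the spread within either sort (-2.0, SE 0.11, adjusted p = 0.000388), 4.00-fold higher in Flk1- cells. Foxa2, the forkhead factor of endoderm and notochord, was at -0.02, 0.52, 0.30 and 0.29 against 1.74, 1.73, 2.05 and 2.27 (-1.67, SE 0.15, adjusted p = 0.00204). Lgmn, the lysosomal protease legumain, differed by -1.39 (SE 0.16) and Slc39a8, a zinc and manganese transporter, by -1.38 (SE 0.16). The apolipoprotein Apoa1 differed by -0.53 (SE 0.07, adjusted p = 0.00719) and was far below the reference in both sorts, from -4.51 to -3.76.

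Cubn, the endocytic receptor cubilin of visceral endoderm, had ratios of -1.28, -0.99, -0.81 and -1.07 on Flk1+ arrays and -0.57, -0.32, 0.83 and 1.26 on Flk1- arrays. Although the sorts did not overlap, the Flk1- arrays split into a low and a high pair. The difference of -1.33 was not called (SE 0.38, adjusted p = 0.0789); with the sample number as a block its adjusted p was 0.046, within a range of 0.046 to 0.328 over the alternatives. The mean over the endoderm list ran from -0.96 to -0.84 on Flk1+ arrays and from -0.39 to -0.19 on Flk1- arrays.

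Epithelial genes followed the endoderm genes. Of 22 measured, 0 were called higher and 13 lower (59.1%, against 2.19% of all features), with a median of -0.37. Of these 13 calls 9 were kept whichever array was left out. The list's array means were -0.45 to -0.32 for Flk1+ and 0.12 to 0.18 for Flk1-. Epcam, an epithelial adhesion molecule, was at -2.21, -2.04, -2.35 and -2.29 on Flk1+ arrays and at -0.99, -1.06, -1.18 and -1.09 on Flk1- arrays. The arrays of each sort lay close together, and the difference was -1.14 (SE 0.07, adjusted p = 0.000412). Cdh1, E-cadherin, differed by -1.09 (SE 0.12, adjusted p = 0.00476). Cldn4, a tight junction claudin, differed by -1.26 (SE 0.11, adjusted p = 0.00204), with Flk1+ arrays at 0.25, 0.64, 0.24 and 0.19 and Flk1- arrays at 1.65, 1.38, 1.69 and 1.65; array 2 of each sort lay closest to the other sort. The membrane protease St14 (-0.90) and its inhibitor Spint1 (-0.91) fell together. In the fit on all 24 arrays the calls of Epcam, Cdh1 and Spint1 ended, and those of Ttr, Foxa2, Lgmn, Slc39a8, Apoa1, Cldn4 and St14 did not.

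Promoters of the lower epithelial genes Epcam and Cldn4 are shown for the E-box CAGGTG. Repressors of the Snail and Zeb families recognise these letters in epithelial promoters. CAGGTG occurred in 11 of the 18 called-lower epithelial and endoderm genes with an entry (23 were called) and in 4 of 12 not called. It occurred in 1 of the 17 called-higher endothelial genes and in 5 of 25 endothelial genes not called. Of the lower genes described above, Epcam, Cldn4 and the endoderm gene Apoa1 held it. The epithelial gene Spint1 and the endoderm genes Foxa2, Lgmn and Slc39a8 did not. Of all measured genes 18.4% held it, and 17.2% of all promoters. In Epcam it lies 187 to 182 bases before the start, as the reverse complement CACCTG, and 19 to 14 bases before it. In Cldn4 it lies 14 to 9 bases before the start, also as CACCTG. Capitals mark it.
Epcam, chr17:87635729-87635978, plus strand: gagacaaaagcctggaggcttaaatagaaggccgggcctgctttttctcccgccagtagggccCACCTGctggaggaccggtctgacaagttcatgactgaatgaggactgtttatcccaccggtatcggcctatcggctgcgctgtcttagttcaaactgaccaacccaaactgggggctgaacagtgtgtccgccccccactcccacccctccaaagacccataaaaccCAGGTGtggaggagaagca
Cldn4, chr5:134946935-134947184, minus strand: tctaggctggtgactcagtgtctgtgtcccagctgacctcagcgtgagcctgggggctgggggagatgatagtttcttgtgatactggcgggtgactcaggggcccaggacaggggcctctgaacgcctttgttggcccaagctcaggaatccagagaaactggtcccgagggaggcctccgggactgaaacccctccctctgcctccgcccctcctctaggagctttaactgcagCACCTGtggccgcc
A match is a description of these letters only. Of the called genes of these lists described here, Angpt2, Cdh5, Cdh1, Ttr and St14 had no entry.

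Other large decreases came from genes outside these groups. F3, tissue factor, which starts coagulation, was at -0.61, -0.37, -0.44 and -0.13 on Flk1+ arrays and at 0.90, 0.96, 1.39 and 2.19 on Flk1- arrays (-1.75, SE 0.27, adjusted p = 0.0123). Flk1- array 4 was the highest and no array overlapped. Rap1gap, which switches off the GTPase Rap1, differed by -1.33 (SE 0.08, adjusted p = 0.000412), S100g, a calcium-binding protein of absorptive epithelium, by -1.46 (SE 0.15), the peptidase Dpp4 by -1.23 (SE 0.13) and the adhesion glycoprotein Emb by -1.24 (SE 0.09). The call of Emb ended in the fit on all 24 arrays. Metallothionein Mt2 differed by -1.38 (SE 0.28, adjusted p = 0.0305). Its Flk1- arrays ranged from -2.15 to -0.88, and the call ended on leaving out Flk1+ array 1, 2 or 4 or Flk1- array 1, 3 or 4 (-1.53 to -1.16). Mt2 is a close copy of Mt1, so its probe may read both.

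Matrix genes gave 8 calls among 41 measured basement membrane, matrix and integrin genes, 0 higher and 8 lower (19.5%, against 2.19% of all features), with a median of -0.06. The block gave 2 higher and 9 lower. Col4a1, a chain of basement membrane collagen IV, was at -1.36, -1.08, -0.97 and -0.81 on Flk1+ arrays and at 0.06, 0.66, 0.76 and 1.08 on Flk1- arrays (-1.70, SE 0.21, adjusted p = 0.00629). No array overlapped, and Flk1- cells were 3.24-fold higher. Col4a2, its usual partner chain, differed by -0.37 (SE 0.10, adjusted p = 0.0604) and was not called, with Flk1+ arrays from -0.42 to -0.23 and Flk1- arrays from -0.12 to 0.34. It was called without Flk1- array 1 (-0.44), after quantile normalization, with array weights, with its most variable probe (-0.73) and with the block (adjusted p = 0.031, range over alternatives 0.031 to 0.591). The laminin chains Lama1 (-0.93, SE 0.20, adjusted p = 0.0371) and Lama5 (-0.70, SE 0.10, adjusted p = 0.00994) were lower too. The call of Lama1 ended on leaving out any single Flk1+ array or Flk1- array 3 or 4 (-1.0 to -0.78). The calls of Lama1 and Lama5 ended in the fit on all 24 arrays.

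Pluripotency genes were partly lower in Flk1+ cells, with 0 of 26 measured called higher and 7 called lower (26.9%, against 2.19% of all features) and a median of -0.10. The block gave 1 higher and 8 lower. Zfp42 (Rex1), a marker of undifferentiated stem cells, was at 0.52, 0.54, 0.66 and 0.54 on Flk1+ arrays and at 2.30, 1.32, 1.68 and 1.83 on Flk1- arrays (-1.22, SE 0.17, adjusted p = 0.0104). Flk1- arrays lay above Flk1+ arrays throughout. Otx2, of epiblast, anterior neural tissue and endoderm, differed by -0.81 (SE 0.07, adjusted p = 0.0016). Sox2, of pluripotent and neural cells, differed by -0.97 (SE 0.19, adjusted p = 0.0288), a call that ended on leaving out Flk1+ array 1, 3 or 4 or Flk1- array 4 (-1.0 to -0.84). Calls of Zfp42 and Sox2 ended in the fit on all 24 arrays. Nanog, a core pluripotency factor, was near the reference in both sorts, from -0.07 to 0.14, and not called (-0.08). Of 18 measured neural genes Sox2 was the single call (5.56% called, near the 5.46% of all features).

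**Figure D3:**
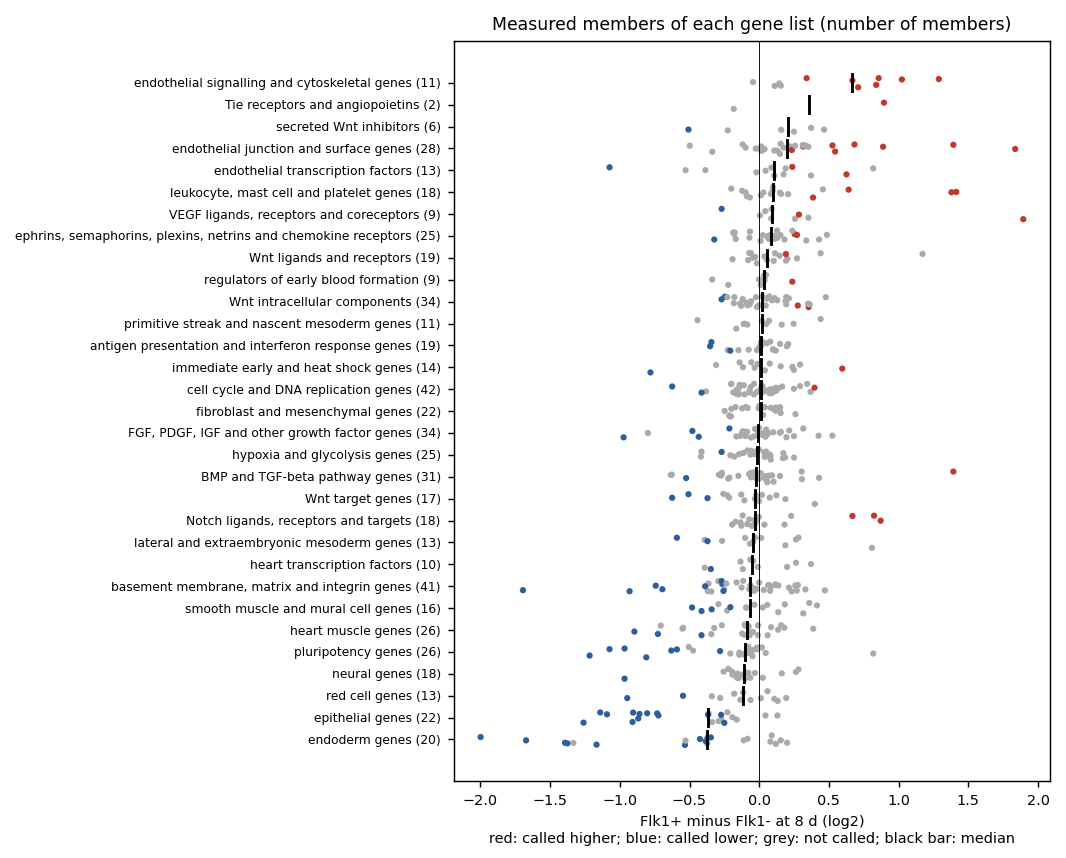
Difference between Flk1+ and Flk1- cells at 8 d (x axis, log2) for each measured member of 31 gene lists (rows, with the number of measured members), ordered by the list's median (black bar). Red points are called higher, blue points called lower and grey points not called; the list of endothelial signalling and cytoskeletal genes has the highest median, at 0.67, and those of endoderm (-0.38) and epithelial genes (-0.37) the lowest.

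Calls among heart and smooth muscle genes were on the Flk1- side. Among 26 measured heart muscle genes 0 were called higher and 3 lower (11.5% called, against 2.19% lower over all features), with a median of -0.09. Myl4, the atrial myosin light chain of embryonic heart, differed by -0.90 (SE 0.21, adjusted p = 0.0495), a call that rested on nearly all arrays: it ended without any single array other than Flk1+ array 2 (-1.02 to -0.73), and with trended, robust priors. Mybpc3, a sarcomere protein, was lower by 0.73 (difference -0.73, SE 0.12, adjusted p = 0.0168), with Flk1+ arrays from -1.20 to -0.79 and Flk1- arrays from -0.53 to -0.14. Actc1, cardiac actin, leaned the other way (0.39, SE 0.12, adjusted p = 0.0902); it was not called except without Flk1+ array 4 (0.48) and with the block (adjusted p = 0.0103, range over alternatives 0.0103 to 1). With the block 1 heart muscle gene was higher and 6 were lower. Of 10 measured heart transcription factors 1 was called lower and 0 higher (10% called, against 2.19% lower over all features). With the block 1 was lower and 1 higher.

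Among 16 measured smooth muscle and mural cell genes 4 (25%, against 2.19% of all features) were called lower, by -0.48 to -0.21, and 0 higher. None of these calls was kept whichever array was left out. The block gave 3 higher and 4 lower. Acta2, smooth muscle actin, was above the reference in both sorts, from 1.17 to 1.41 and from 1.13 to 1.54, and differed by -0.09; Pdgfrb, the PDGF receptor of pericytes, differed by 0.32. Neither was called. Of 22 measured fibroblast and mesenchymal genes limma called 0, with 2 at an unadjusted p under 0.05 and 1 called with the block; Col1a1 was at 0.03 (95% interval -0.08 to 0.13). Of 11 measured genes of primitive streak and nascent mesoderm 0 were called as well, with 4 at an unadjusted p under 0.05 and 1 called with the block.

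Lateral and extraembryonic mesoderm genes gave 0 higher and 2 lower calls of 13 measured (15.4% called, against 2.19% lower over all features), with a median of -0.04. Tbx3, a T-box factor of mesoderm and heart, was at -0.39, -0.20, 0.01 and 0.11 on Flk1+ arrays and at 0.32, 0.37, 0.56 and 0.65 on Flk1- arrays (-0.59, SE 0.12, adjusted p = 0.0298). The sorts did not overlap, but the call ended on leaving out Flk1+ array 1, 2 or 3 or Flk1- array 3 or 4 (-0.63 to -0.50) and in the fit on all 24 arrays. Tbx4, a T-box factor of allantois and hindlimb, was at 2.51, 1.37, 2.63 and 2.66 on Flk1+ arrays and at 1.97, 0.75, 1.63 and 1.59 on Flk1- arrays. Array 2 was low in both sorts, the sorts overlapped, and the difference of 0.81 was not called (SE 0.34, adjusted p = 0.194). With the block its adjusted p was 0.0143, within a range of 0.0143 to 0.743 over the alternatives.

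Wnt ligands bind Frizzled and Lrp receptors. In the canonical branch this stabilises beta-catenin, which acts with Tcf and Lef factors, while Groucho-type proteins of the Tle family repress the same targets and Dkk and Wif proteins block the pathway outside the cell. Of 19 measured ligands and receptors 1 was called higher and 0 lower (5.26% called, near the 5.46% of all features), with a median of 0.06. With the block 2 were higher. Wnt2, a canonical ligand of fetal vasculature and lung mesenchyme, had the widest difference of these genes without a call. It was at 3.67, 2.45, 3.59 and 3.13 on Flk1+ arrays and at 2.67, 1.52, 2.11 and 1.85 on Flk1- arrays, far above the reference throughout. Flk1+ array 2 lay below Flk1- array 1, so the sorts overlapped, and the difference was 1.17 (SE 0.31, 95% interval 0.46 to 1.88, adjusted p = 0.0654). Within same-numbered pairs Flk1+ was higher by 1.00, 0.92, 1.48 and 1.28. Wnt2 was called with the number as a block (adjusted p = 0.00837), in the fit on all 24 arrays and without Flk1+ array 2 (1.43), and its adjusted p ranged from 0.00837 to 0.159 over 15 alternatives. Rspo2, a secreted enhancer of Wnt signalling, was the called member, at only 0.19 (SE 0.04, adjusted p = 0.0359). That call ended on leaving out Flk1+ array 1, 2 or 4 or Flk1- array 1, 3 or 4 (0.18 to 0.19). Wnt5a, a mainly non-canonical ligand, differed by 0.15 and was not called.

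**Figure D4:**
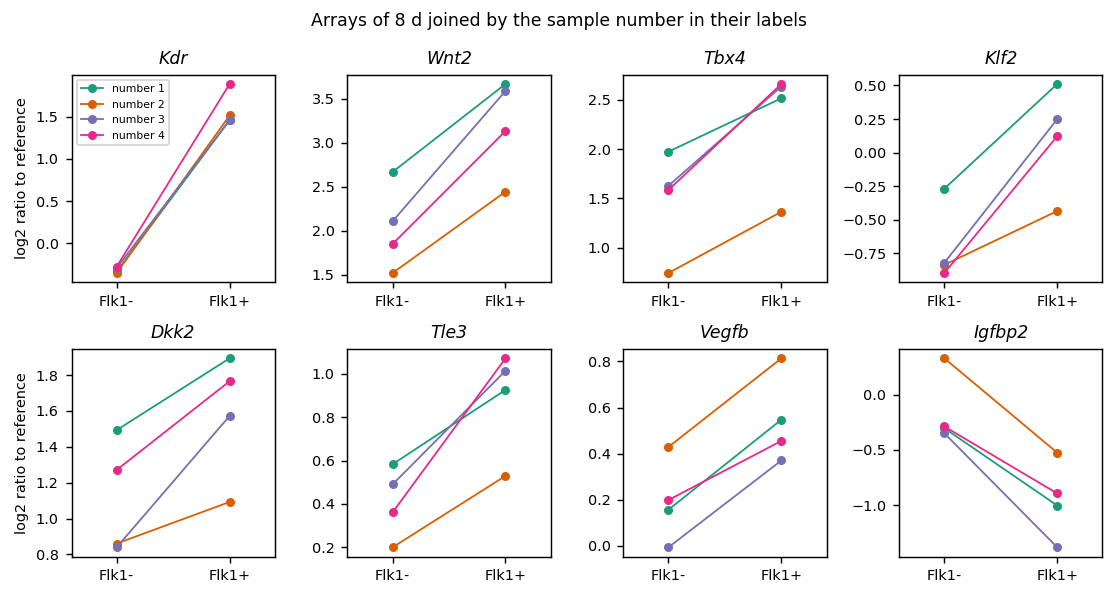
Log2 ratio to reference (y axis, with its own scale in each panel) in Flk1- and Flk1+ cells for 8 genes, with arrays of the same label number joined by a line. Kdr is shown for comparison; Wnt2, Tbx4, Klf2, Dkk2, Tle3 and Vegfb rise and Igfbp2 falls along all 4 lines, while array 2 starts and ends low for Wnt2 and Tbx4.

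Inside the cell, 34 Wnt pathway genes were measured, 2 called higher and 2 lower (11.8% called, against 5.46% of all features), with a median of 0.02. Tcf7l1 (Tcf3), mostly a repressor of Wnt targets, was higher by 0.35 (SE 0.06, adjusted p = 0.0223) and the kinase Csnk1e by 0.28 (SE 0.06). Tcf7l2 was lower by 0.25 (difference -0.25, SE 0.06, adjusted p = 0.0463) and the corepressor Tle1 by 0.27 (difference -0.27, SE 0.06). None of the 4 calls was kept whichever array was left out: Tcf7l1 lost it without Flk1+ array 1, 2 or 3 or Flk1- array 3 or 4 (0.31 to 0.36), Csnk1e without any single array except Flk1+ array 4 (0.23 to 0.30), Tcf7l2 without any except Flk1- array 2 (-0.26 to -0.20) and Tle1 without any except Flk1- array 3 (-0.29 to -0.24). The calls of Rspo2 and of these 4 genes ended in the fit on all 24 arrays, those of Tcf7l1 and Tle1 with trended, robust priors and that of Csnk1e with its most variable probe, at a larger difference of 0.43. Tle3 was at 0.93, 0.53, 1.01 and 1.07 on Flk1+ arrays and 0.58, 0.20, 0.49 and 0.36 on Flk1- arrays, with Flk1+ array 2 inside the Flk1- range. Its difference of 0.48 was not called (SE 0.13, adjusted p = 0.0669), but it was without Flk1+ array 2 (0.60), after quantile normalization and with the block (adjusted p = 0.0212, range over alternatives 0.0212 to 0.94). Ctnnb1, which encodes beta-catenin, differed by 0.05 (95% interval -0.13 to 0.24) and was not called.

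Of 6 measured secreted Wnt inhibitors 1 was called lower and 0 higher (16.7% called, against 2.19% lower over all features), with a median of 0.20. Dkk1 was at 0.21, 0.41, 0.21 and 0.34 on Flk1+ arrays and at 0.84, 0.74, 0.75 and 0.89 on Flk1- arrays (-0.51, SE 0.06, adjusted p = 0.00608). The sorts did not overlap and the call was kept whichever array was left out, but it ended in the fit on all 24 arrays. Dkk2 (0.47, SE 0.20, adjusted p = 0.205) and Wif1 (0.37, SE 0.15, adjusted p = 0.165) had the opposite sign and were not called. Both were called with the block, at adjusted p = 0.0291 for Dkk2 (range over alternatives 0.0291 to 1) and 0.0455 for Wif1 (0.0455 to 1), which gave 2 higher and 1 lower among the inhibitors. Of 17 measured Wnt target genes 0 were called higher and 3 lower (17.6% called, against 2.19% lower over all features), with a median of -0.03. Ccnd2, cyclin D2, differed by -0.62 (SE 0.07, adjusted p = 0.00441), and the call ended in the fit on all 24 arrays. Lef1, a target and a partner of beta-catenin, differed by -0.23 and was not called.

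Of 31 measured BMP and TGF-beta genes 1 was called higher (Eng, described above) and 1 lower (6.45% called, near the 5.46% of all features); the block gave 2 higher and 4 lower. The lower one was Inhba, the activin A subunit, at -0.52 (SE 0.06, adjusted p = 0.00632), with Flk1+ arrays from -1.50 to -1.38 and Flk1- arrays from -1.04 to -0.80. Of 34 measured FGF, PDGF, IGF and other growth factor genes 0 were called higher and 4 lower (11.8%, against 2.19% of all features), with a median of -0.01. The block gave 1 higher and 4 lower. Hbegf, a ligand of the EGF receptor, was at -0.47, -0.20, -0.27 and -0.28 on Flk1+ arrays and at 0.58, 0.52, 0.69 and 0.89 on Flk1- arrays. The gap was wider than the spread in either sort (-0.97, SE 0.09, adjusted p = 0.00221). Fgf10, a mesenchymal FGF, differed by -0.48 (SE 0.11, adjusted p = 0.0407). Its call ended on leaving out any single Flk1+ array or Flk1- array 1, 2 or 4 (-0.51 to -0.42) and with trended, robust priors. The calls of Inhba and Fgf10 ended in the fit on all 24 arrays. Igfbp2, an IGF-binding protein, was lower in every pair and not called (-0.80, SE 0.20, adjusted p = 0.0582). It was called after quantile normalization, in the fit on all 24 arrays and with the block (adjusted p = 0.00902, range over alternatives 0.00902 to 0.116).

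Of 25 measured guidance genes (ephrins, semaphorins, plexins, netrins and chemokine receptors) 2 were called higher, by 0.25 and 0.27, and 1 lower. That is 12% called, against 5.46% of all features. Neither higher call was kept whichever array was left out, and both ended in the fit on all 24 arrays. That at 0.27 also ended in the values as deposited, with trended, robust priors and after quantile normalization (0.15). The gene called lower was the semaphorin receptor Plxnb1 (-0.32, SE 0.05, adjusted p = 0.0163), whose call ended in the fit on all 24 arrays. Cell cycle and DNA replication genes gave 1 higher and 2 lower calls of 42 measured (7.14% called, against 5.46% of all features), with a median of 0.01. The block gave 3 higher and 2 lower. Of 14 measured immediate early and heat shock genes 14.3% were called, against 5.46% of all features. There 1 was higher (0.60) and 1 lower, the small heat shock protein gene Hspb1 (-0.78, SE 0.11, adjusted p = 0.0115). The higher call was not kept whichever array was left out. It also ended after quantile normalization, with trended, robust priors and in the fit on all 24 arrays. Among 25 hypoxia and glycolysis genes the single call was that of Vegfa (4% called, against 5.46% of all features). Of 19 antigen presentation and interferon response genes 3 (15.8%, against 2.19% of all features) were lower, by -0.35 to -0.21. None of those 3 calls was kept whichever array was left out.

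The difference between the sorts at 8 d was then set against that at 95 h and at 84 h with an interaction test on the 16 arrays of both times. Both tests use the same 8 arrays of 8 d, so they are not independent of each other. Against 95 h 161 features (0.923%) were called, 90 with a more positive and 71 with a more negative difference at 8 d. Against 84 h 1260 (7.22%) were called, 855 more positive and 405 more negative. Separate fits at the earlier times called 135 features (0.774%) at 95 h and 347 (1.99%) at 84 h. The 95 h count fell to between 82 and 107 without Flk1+ array 1, 2, 3 or 4 or Flk1- array 3 or 4 of 8 d, and with the sample number within time as a block it was 440.

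Cdh5, Cd34 and Ctla2b differed between the sorts mainly at 8 d. Cdh5 differed by 0.20 (SE 0.12) at 84 h, -0.13 (SE 0.16) at 95 h and 1.84 at 8 d. The 8 d difference exceeded that at 95 h by 1.97 (SE 0.24, adjusted p = 0.000659) and that at 84 h by 1.64 (SE 0.21, adjusted p = 0.00062). In Flk1+ cells its mean ratio was -3.23, -3.10 and -0.18 at the 3 times, and in Flk1- cells -3.42, -2.97 and -2.02. Cd34 went from 0.11 and -0.04 at the earlier times to 0.89, a change of 0.92 against 95 h (SE 0.18, adjusted p = 0.0212) and 0.78 against 84 h (SE 0.14, adjusted p = 0.00617). Its 95 h test was lost without Flk1+ array 2 or 4 or Flk1- array 3 or 4 of 8 d (0.85 to 0.92) and with array weights, and both tests were lost after quantile normalization. Ctla2b went from 0.64 and 0.36 to 2.49, by 2.13 (SE 0.39, adjusted p = 0.0164) and 1.86 (SE 0.41, adjusted p = 0.016), the first not with array weights. Eng went from 0.53 and 0.14 to 1.39. Its test against 95 h (1.25, SE 0.28, adjusted p = 0.0456) was kept only without Flk1+ array 1 or 3 of 8 d, Flk1+ array 2 of 95 h or Flk1- array 1 of 95 h (differences in the other fits from 1.04 to 1.32), and that against 84 h was not called (0.87, adjusted p = 0.13) except with array weights (1.18), without Flk1+ array 4 of 84 h (1.08) and without that array, Flk1+ array 2 and Flk1- array 4 of 84 h together (1.20).

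Fgd5, Klhl6, Nrp1 and Kdr already differed at 84 h. Fgd5 differed by 0.85 (SE 0.14), 0.80 (SE 0.16, not called at that time) and 1.02 at 84 h, 95 h and 8 d, and neither interaction was called (0.18, SE 0.18, and 0.22, SE 0.19). Klhl6 had its wider differences early, 1.92 and 2.12 against 0.71, a change of -1.21 from 84 h (adjusted p = 0.0166, not called after quantile normalization) and -1.41 from 95 h (adjusted p = 0.0065). Nrp1 also narrowed, from 1.21 and 1.04 to 0.29. The change was -0.92 against 84 h (SE 0.10, adjusted p = 0.000142) and -0.75 against 95 h (SE 0.16, adjusted p = 0.0374). The latter was kept only without Flk1+ array 2 or Flk1- array 1, 2 or 3 of 95 h (differences in the other fits from -0.78 to -0.69). Between 84 h and 8 d the mean Nrp1 ratio went from -1.09 to 1.08 in the Flk1+ sort and from -2.29 to 0.80 in the Flk1- sort. Kdr itself differed by 1.91 (SE 0.35), 2.93 (SE 0.12) and 1.89. The 8 d difference was smaller than that at 95 h by 1.03 (interaction -1.03, SE 0.15, adjusted p = 0.00243), a call that ended in the fit on all 24 arrays. Against 84 h it was not called (-0.01, SE 0.38), and without Flk1+ arrays 2 and 4 and Flk1- array 4 of 84 h, which stand apart from the others of their group, it was -0.59 and called.

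**Figure D5:**
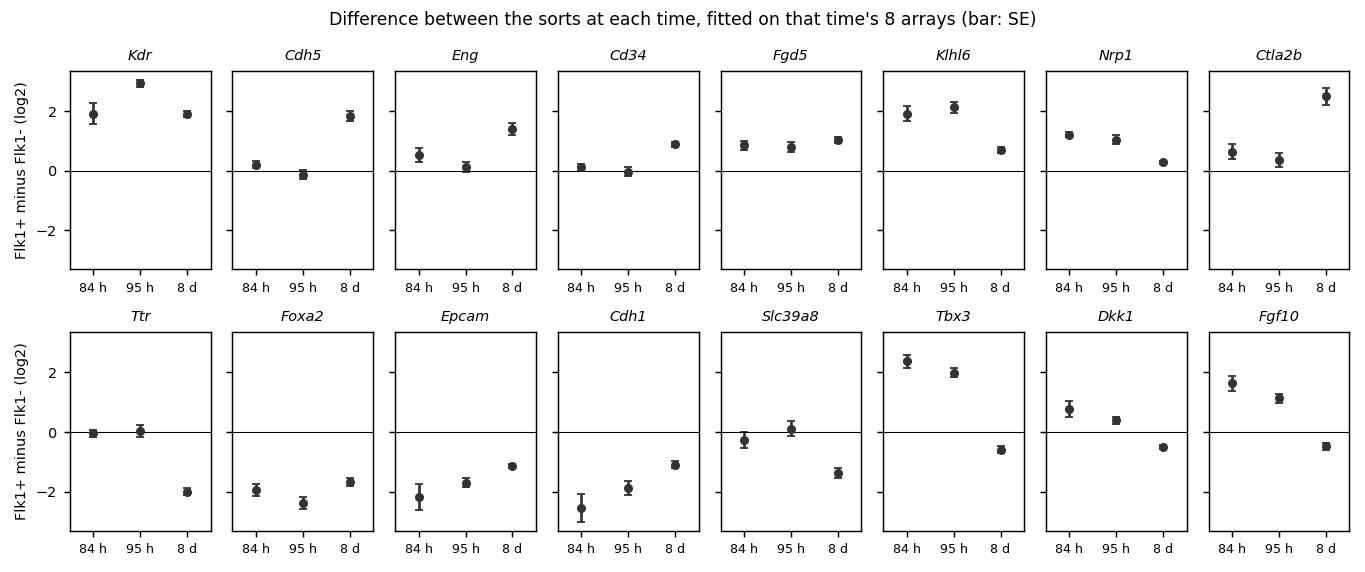
Difference between Flk1+ and Flk1- cells (y axis, log2) at 84 h, 95 h and 8 d (x axis) for 16 genes, each from a fit on that time's 8 arrays, with bars of 1 SE. Cdh5, Cd34 and Ctla2b rise at 8 d, Ttr falls to -2.0 at 8 d, and Tbx3, Dkk1 and Fgf10 cross from above 0 to below 0.

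The genes lower in Flk1+ cells split in the same way. Ttr was not called at 84 h (-0.05, SE 0.11) or 95 h (0.02, SE 0.20) and differed by -2.0 at 8 d, a change of -1.95 (SE 0.16, adjusted p = 3.22e-05) and -2.02 (SE 0.24, adjusted p = 0.000637). The mean in Flk1+ cells was -3.39, -3.09 and -3.24 at the 3 times, while that in Flk1- cells was -3.34, -3.11 and -1.24. Slc39a8 changed by -1.49 against 95 h (SE 0.31, adjusted p = 0.0319), which was lost without Flk1+ array 1, 2 or 4 or Flk1- array 1, 3 or 4 of 8 d, Flk1+ array 4 of 95 h or Flk1- array 4 of 95 h (-1.50 to -1.40) and in the fit on all 24 arrays. Against 84 h it was not called (-1.11, adjusted p = 0.0568), but it was without Flk1+ array 3 of 8 d (-1.26), without Flk1+ array 2 (-1.32) or 4 (-1.25) of 84 h, without the 3 arrays of 84 h that stand apart (-1.67), after quantile normalization (-1.69), with array weights (-1.55) and in the values as deposited (-1.17). Foxa2 was lower in Flk1+ cells at all 3 times, by -1.95 (SE 0.20), -2.39 (SE 0.20) and -1.67, with no interaction called. Epcam (-2.17, -1.69 and -1.14) and Cdh1 (-2.54, -1.88 and -1.09) gave no called interaction either. Without the same 3 arrays of 84 h both were called against 84 h, at 0.65 for Epcam and 1.35 for Cdh1, and Cdh1 was also called without Flk1- array 4 of 84 h alone (1.89) and with array weights (1.31).

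For 3 genes of mesoderm and signalling the estimated difference was above 0 at the early times and below 0 at 8 d. The interaction tests the change of the difference and not its sign at either time. The 8 d calls of Tbx3 and Fgf10 were fragile, as given above. That of Dkk1 was kept whichever array was left out, but ended in the fit on all 24 arrays. Tbx3 differed by 2.37 (SE 0.21) at 84 h, 1.99 (SE 0.16) at 95 h and -0.59 at 8 d. The interaction was -2.96 (SE 0.26, adjusted p = 4.25e-05) against 84 h and -2.58 (SE 0.20, adjusted p = 1.95e-05) against 95 h. Its mean in Flk1+ cells fell from 2.36 and 2.55 to -0.12, and in Flk1- cells it was 0.00, 0.56 and 0.47. Fgf10 differed by 1.64, 1.13 and -0.48, with interactions of -2.12 (SE 0.29, adjusted p = 0.000966) and -1.61 (SE 0.18, adjusted p = 0.000411). Dkk1 differed by 0.77 (SE 0.26) and 0.39 (SE 0.13), neither called at its own time, and by -0.51 at 8 d. Its interactions were -1.28 (SE 0.28, adjusted p = 0.0144) and -0.90 (SE 0.13, adjusted p = 0.0032), the second not in the fit on all 24 arrays. Kept whichever of the 16 arrays was left out were both interactions of Cdh5, Ctla2b, Klhl6, Ttr, Tbx3, Dkk1 and Fgf10.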

How the data were processed

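RNA of sorted cells was measured on 24 two-colour arrays, of which the 8 of 8 d give the comparison. The authors deposited a table with a value for each probe and array, read here as the log2 ratio of Cy5 (sample, RNeasy RNA) over Cy3 (pup reference, guanidinium RNA), with dyes, RNA isolation and amplification of both per the labels. Log base, direction, background correction and normalization within arrays are not given in the sources used here; no dyes were exchanged, so a dye effect common to all arrays drops out of differences. Of 20280 probes 11813 had 1 gene in the platform annotation, 559 several and 7908 none listed; the last 2 kinds stayed unnamed. Each array's median was set to 0 (8 d medians were 0.046 to 0.0772 as deposited) and the probes of 2180 genes averaged, leaving 8973 named genes and 8467 unnamed probes. In 2 genes 1 probe was called higher and another lower. No 2 of the 24 arrays were identical.

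Tests used limma 3.58.1 (lmFit, eBayes) in R 4.3.3 with data.table (version 1.17.8), on 8 arrays (6 residual and 2.54 prior degrees of freedom) or, for interactions, 16, with Benjamini-Hochberg adjustment over 17440 features and calls at an adjusted p under 0.05. The script was tested on simulated data. The number of arrays, 4 per group, limits the precision. SE is from the fit. Pairing was checked from the deviations of arrays from their sort's mean. Arrays of the same label number correlated at 0.293, 0.357, 0.437 and 0.146 and arrays of different numbers at -0.315 to 0.12. The labels do not say what a number marks, so a pairing by number is a reading from the data. The main fit did not use it. Calls, SE and adjusted p are unpaired unless the block is named.

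Named genes were Kdr, called named genes without overlap (the 12 most positive and the 12 most negative differences), up to 5 called members per list and direction, any member of the VEGF, Tie and Wnt lists, and uncalled list members with their values; those printed lean towards stable calls. The members and lists were chosen with earlier results of these data known. List genes without a named probe were not analysed here. Alternatives were the values as deposited, quantile normalization, all 24 arrays in 1 fit, array weights, the replicate block, trended and robust priors, the most variable probe of a gene, a difference of at least 1, leaving out each array, and leaving out 3 arrays of 84 h. Promoters are from RefSeq, build GRCm38.p6.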

Additional observations from a re-analysis of the deposited data

Results flagged for a closer look

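Among 98 genes described, with 4 arrays per sort and so 196 groups, 16 arrays stood apart from the other 3 of their group by Dixon's criterion; chance alone gives about 5%, or 1 in 20 groups. In Flk1+ cells these were Kdr (1.89 on array 4), Calcrl (-0.49 on array 2), Esam (-0.58 on array 1), Col4a2 (-0.42 on array 1), Cldn4 (0.64 on array 2), Tbx4 (1.37 on array 2) and Ccnd2 (-0.56 on array 2). In Flk1- cells they were Flt4 (-0.66), Klf4 (-0.62), Klf2 (-0.27) and Notch1 (-1.07) on array 1, Cldn4 (1.38) and Igfbp2 (0.33) on array 2, and Angpt1 (1.18), Wnt5a (0.45) and Lef1 (0.50) on array 3. Cldn4 was the one gene named here with a distant array in both sorts, each time array 2.

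The difference between the sorts at 8 d was other than at an earlier time, by limma's interaction test, for these genes. Against 95 h it was more positive for Cdh5 (1.97), Eng (1.25), Cd34 (0.92) and Ctla2b (2.13) and more negative for Kdr (-1.03), Klhl6 (-1.41), Nrp1 (-0.75), Ttr (-2.02), Slc39a8 (-1.49), Tbx3 (-2.58), Dkk1 (-0.90) and Fgf10 (-1.61). Against 84 h it was more positive for Cdh5 (1.64), Cd34 (0.78) and Ctla2b (1.86) and more negative for Klhl6 (-1.21), Nrp1 (-0.92), Ttr (-1.95), Tbx3 (-2.96), Dkk1 (-1.28) and Fgf10 (-2.12). Both sets share the 8 arrays of 8 d. Not all of these calls were stable. With 1 of the 16 arrays left out, the call against 95 h was lost in 12 fits for Eng, 12 for Nrp1, 8 for Slc39a8 and 4 for Cd34. Other settings ended further calls, as given above.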

How the results depend on the processing

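The number of called features was 952 (570 higher, 382 lower). It was 65 (26 higher, 39 lower; 62 of them among the 952) in the fit on all 24 arrays, 1750 (1048 and 702) with the replicate block and 39 with a difference of at least 1. Leaving out 1 array gave 341 to 898 calls, 190 to 553 higher and 151 to 345 lower. Values as deposited gave 947, quantile normalization 945, array weights 1324, trended and robust priors 846 and the most variable probe 1004. The share of higher among the called was 59.9%, against 51.3% after quantile normalization and 40% in the fit on all 24 arrays. Kdr stayed between 1.79 and 1.94 with each array left out. The count against 95 h, 161, was 93 in the fit on all 24 arrays, 440 with the replicate block and 82 to 219 with 1 array left out. The count against 84 h, 1260, was 554 in the fit on all 24 arrays, 3533 with array weights, 828 after quantile normalization, 4678 without 3 arrays of 84 h and 686 to 2307 with 1 array left out. Of all 952 called features 263 kept the call whichever array was left out, 62 in the fit on all 24 arrays and 876 with the replicate block. The genes described lean towards stable calls. Of 65 called genes described, 46 kept the call whichever array was left out and 32 kept it in the fit on all 24 arrays. The replicate block ended 0 of the 65 calls and added 12; beside those named in the report it changed no other call of a gene described. The cause of these shifts was not tested. With 4 arrays per sort, small differences can be missed.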

Other observations

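Named genes and unnamed probes split differently. Of the 537 called named genes 226 were higher and 311 lower in Flk1+ cells, while of the 415 called unnamed probes 344 were higher and 71 lower. After quantile normalization the counts were 208 and 370 for named genes and 277 and 90 for unnamed probes, and with the replicate block 442 and 551 and 606 and 151. In the fit on all 24 arrays they were 21 and 37 and 5 and 2. What the unnamed probes measure was not analysed here.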
